A study of Mus musculus with 4 samples.

Results

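The genes described here are 10 lipid handling genes of mammary gland myeloid cells, Apoe, Lpl, Cd36, Fabp4, Fabp5, Plin2, Trem2, Gpnmb, Pltp and Mmp12, of 55253 genes matched between the data's gene matrices. They were chosen by name, and their raw counts were read in macrophages, in Csf1r+ cells without C1qa, in cells with Xcr1 or Cd209a and in epithelial cells, each gated on 1 or more marker genes. All 10 are protein coding genes annotated on mm10. Apoe lies at chr7:19696244-19701310, Lpl at chr8:68880555-68906932, Cd36 at chr5:17781690-17888959, Fabp4 at chr3:10204342-10208616 and Fabp5 at chr3:10012585-10016610. Plin2 lies at chr4:86626910-86670217, Trem2 at chr17:48346401-48352276, Gpnmb at chr6:49036518-49058182, Pltp at chr2:164839518-164857708 and Mmp12 at chr9:7344397-7360461.

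The study sequenced the RNA of CD45+ cells (CD45 marks blood-derived cells) that had been freed from mouse mammary glands with collagenase. Cells from several groups of mice were tagged with hash antibodies, each carrying a short DNA barcode, and pooled into the droplet libraries DR_MG_2021 and DR_MG_2022, called MG2021 and MG2022 here and named by year in the plots. Of the MG2021 library, 4 hash-defined samples were used, named Germ-free, Nulliparous, Gestation and Lactation. Of the MG2022 library, 7 were used, named Germ-free, Gestation, Lactation, Involution, Regression, Balb/c and GF. Gestation is pregnancy, involution is the shrinkage of the gland after weaning, Balb/c is a mouse strain, and germ-free mice are raised without microbes. Nulliparous mice have not borne young. The sources used here do not give the strain of the other groups, alleles, ages, how many animals a tag stands for, or at what stage the Balb/c and GF mice were taken. The name Germ-free of tag HT2 is disputed by the library titles, since the MG2021 title lists involution and no germ-free group and the MG2022 title lists 1 germ-free group only. In the main analysis HT2 samples therefore entered comparisons within samples only, and those were repeated without them. Alternative fits of Lactation minus Gestation over all hash-defined samples, or with a sample left out, also held HT2 samples. The Lactation and Gestation tags of MG2022 were weak, with medians of 6 and 13 tag counts per cell. The other MG2022 tags had medians from 22 to 65. Each library is a single droplet run, so the hash-defined samples of a library share that run, and p-values measure the spread between hash-defined samples only.

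After filtering, 15290 cells were analysed in MG2021 and 14610 in MG2022, in hash-defined samples of 783 to 5633 cells. Median UMIs (unique molecular identifiers, each standing for 1 captured RNA molecule) per cell ran from 1194 to 2041 over the MG2021 samples and from 2404 to 3173 over the MG2022 samples, so the later library was the deeper one. The libraries shared 72 cell barcodes. Levels are given as UMIs of a gene per 10000 UMIs of the summed cells, and intervals cover counting error only. Such counts are not scaled to transcript length, so levels are compared between cells and not between genes.

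Cells were gated on UMI counts after cells with Cd3e or Cd79a had been set aside. Macrophages had at least 2 UMIs of C1qa, a complement subunit, and were split into those with at least 1 UMI of Folr2 or Mrc1 (Folr2/Mrc1+) and those with none (Folr2/Mrc1-). Folr2 is a folate receptor and Mrc1 the mannose receptor, and both mark tissue-resident macrophages. The monocyte gate took cells with Csf1r, the receptor for macrophage colony-stimulating factor, and no C1qa, Xcr1 or Cd209a. Further gates took cells with Xcr1, which marks cross-presenting type 1 dendritic cells, and cells with Cd209a, which marks a part of type 2 dendritic cells. Epithelial cells had at least 2 UMIs of Krt8. In MG2021 these gates held 1031 macrophages, of which 208 were Folr2/Mrc1+ and 823 Folr2/Mrc1-, and in MG2022 they held 1171, of which 932 were Folr2/Mrc1+ and 239 Folr2/Mrc1-. The monocyte gate held 596 and 769 cells, the Xcr1 gate 190 and 143, the Cd209a gate 254 and 298, and the Krt8 gate 3 and 14. Lymphocytes, 4689 in MG2021 and 6695 in MG2022, had Cd3e or Cd79a and no UMI of C1qa, Csf1r, Xcr1, Cd209a or Krt8. They served as the reference for free RNA, since most of these genes should be absent from them. Lymphocytes that had caught free RNA of those marker genes were thus left out, so the reference may lie below the true background.

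The gates were checked against marker genes they did not use. A list of 8 macrophage markers such as C1qb and Mertk summed to 76.9 UMIs per 10000 in macrophages of MG2021 and 74.6 in those of MG2022, against 0.495 and 0.914 in lymphocytes. The monocyte list of 10 genes summed to 45.4 and 58.5 in the monocyte gate, against 8.34 and 12 in macrophages. Within that list Ly6c2, which marks classical monocytes, stood at 1.89 and 3.21 in the monocyte gate and at 3.25 and 2.37 in lymphocytes, so it did not set the gate apart. Plac8, Ccr2 and Chil3 of the same list stood at 8.98, 7.42 and 3.24 in MG2021 and at 15.7, 8.43 and 2.83 in MG2022. A list of 6 neutrophil genes such as S100a8 summed to 17.9 and 36.9 in the monocyte gate, with a range over samples from 1.68 to 160 and its highest value in MG2022 Balb/c. These cells are therefore called Csf1r+ C1qa- cells below. The Xcr1 gate held its type 1 dendritic cell list at 46.3 and 51.1. The Cd209a gate held its type 2 list at 13.7 and 16.1. It also held the monocyte list at 20.3 and 32.8, above macrophages (8.34 and 12) and below the monocyte gate (45.4 and 58.5). For that reason these cells are called Cd209a+ cells below.

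Lipid handling in macrophages runs from the capture of lipoproteins and fatty acids to their storage or export. Lipoprotein lipase frees fatty acids from triglyceride-rich particles, CD36 takes them up, fatty acid binding proteins carry them, perilipins coat the droplets that store them, and apolipoprotein E and phospholipid transfer protein move cholesterol and phospholipid between lipoproteins. TREM2 senses lipids, and with GPNMB it marks macrophages that gather around adipocytes and other lipid-rich debris. In the mammary gland, milk fat is made in epithelial cells and released as droplets, adipocytes lie around the ducts, and macrophages clear cells and lipid as the gland remodels.

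Pltp and Mmp12 separated the macrophage gates in opposite directions, as described below, and the bases before their starts are shown for that reason. Of the 10 genes, 7 had an entry in the RefSeq promoter table (GRCm38.p6), with 10 annotated starts in all, and 5 motifs were searched on both strands of the 250 bases before each start. The Pltp stretch is chr2:164857709-164857958 on the minus strand. The Mmp12 stretches, on the plus strand, are chr9:7344147-7344396, before the gene's own start, and chr9:7347124-7347373, before a start 2977 bases further in. They are printed from 5′ to 3′, with motif matches in capitals.
Pltp: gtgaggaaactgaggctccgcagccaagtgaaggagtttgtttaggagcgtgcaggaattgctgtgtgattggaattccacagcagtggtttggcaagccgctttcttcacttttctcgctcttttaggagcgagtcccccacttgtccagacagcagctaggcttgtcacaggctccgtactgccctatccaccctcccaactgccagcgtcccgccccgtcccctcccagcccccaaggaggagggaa
Mmp12 1: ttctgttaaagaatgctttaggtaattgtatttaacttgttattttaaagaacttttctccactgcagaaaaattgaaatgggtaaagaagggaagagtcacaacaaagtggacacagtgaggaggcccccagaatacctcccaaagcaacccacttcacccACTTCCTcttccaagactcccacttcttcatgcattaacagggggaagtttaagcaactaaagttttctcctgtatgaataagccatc
Mmp12 2: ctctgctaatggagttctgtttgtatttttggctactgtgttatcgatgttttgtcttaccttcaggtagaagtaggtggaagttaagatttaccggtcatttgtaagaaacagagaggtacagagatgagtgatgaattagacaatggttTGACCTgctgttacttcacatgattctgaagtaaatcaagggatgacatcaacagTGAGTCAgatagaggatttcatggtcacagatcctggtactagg
The first Mmp12 stretch held the PU.1 site AGGAAGT, here as its reverse complement, 88 to 82 bases before the start. The second held the nuclear receptor half-site AGGTCA, also reversed, 99 to 94 bases before its start, and the AP-1 site TGAGTCA 44 to 38 bases before it. Of 32851 annotated promoters, 7.69% held the PU.1 site, 14% the half-site and 4.46% the AP-1 site. The other motifs were the E-box CACGTG, in 6.02% of promoters, and the TATA box TATAAA, in 12.4%. None of the 5 matched in the Pltp stretch. These matches describe letters and are not evidence of binding. Lpl, Fabp4 and Fabp5 had no promoter entry.

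Across the gates, Apoe, Mmp12 and Trem2 had their highest levels in macrophages, and Lpl had its highest level in Csf1r+ C1qa- cells. Apoe stood at 175 UMIs per 10000 in Folr2/Mrc1+ macrophages of MG2021 and 128 in those of MG2022, and at 200 and 129 in Folr2/Mrc1- macrophages. It stood at 17.9 and 12.1 in Csf1r+ C1qa- cells. In Xcr1 dendritic cells (1.3 and 1.44) and Cd209a+ cells (1.85 and 2.05) Apoe was close to its lymphocyte level (1.55 and 2.22), and the values in these gates are read as background. Lpl stood at 10.0 and 9.47 in Csf1r+ C1qa- cells, at 7.39 and 6.88 in Folr2/Mrc1+ macrophages and at 2.46 and 3.92 in Folr2/Mrc1- macrophages. Xcr1 dendritic cells, at 0.101 and 0.330, were close to the lymphocyte level of Lpl, 0.221 and 0.303.

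Pltp, which transfers phospholipid, stood at 6.07 and 12.2 in Folr2/Mrc1+ macrophages, at 4.41 and 5.28 in Csf1r+ C1qa- cells, at 2.19 and 3.1 in Cd209a+ cells and at 0.601 and 1.01 in Folr2/Mrc1- macrophages. Mmp12, the macrophage elastase, gave the other order, with 5.12 and 10.9 in Folr2/Mrc1- macrophages, 1.66 and 1.06 in Folr2/Mrc1+ macrophages and 0.618 and 0.601 in Csf1r+ C1qa- cells. Plin2, the perilipin of macrophage lipid droplets, was near one level in the Folr2/Mrc1+ gate (3.91 and 4.13), the Folr2/Mrc1- gate (3.4 and 4.2) and Csf1r+ C1qa- cells (3.46 and 3.39). Its level was 1.47 and 1.3 in Xcr1 dendritic cells and 1.34 and 1.49 in Cd209a+ cells, against 0.218 and 0.231 in lymphocytes. Trem2 was low everywhere, with at most 0.763 and 0.609 in Folr2/Mrc1+ macrophages and 0 counts in the Xcr1 gate.

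**Figure D1:**
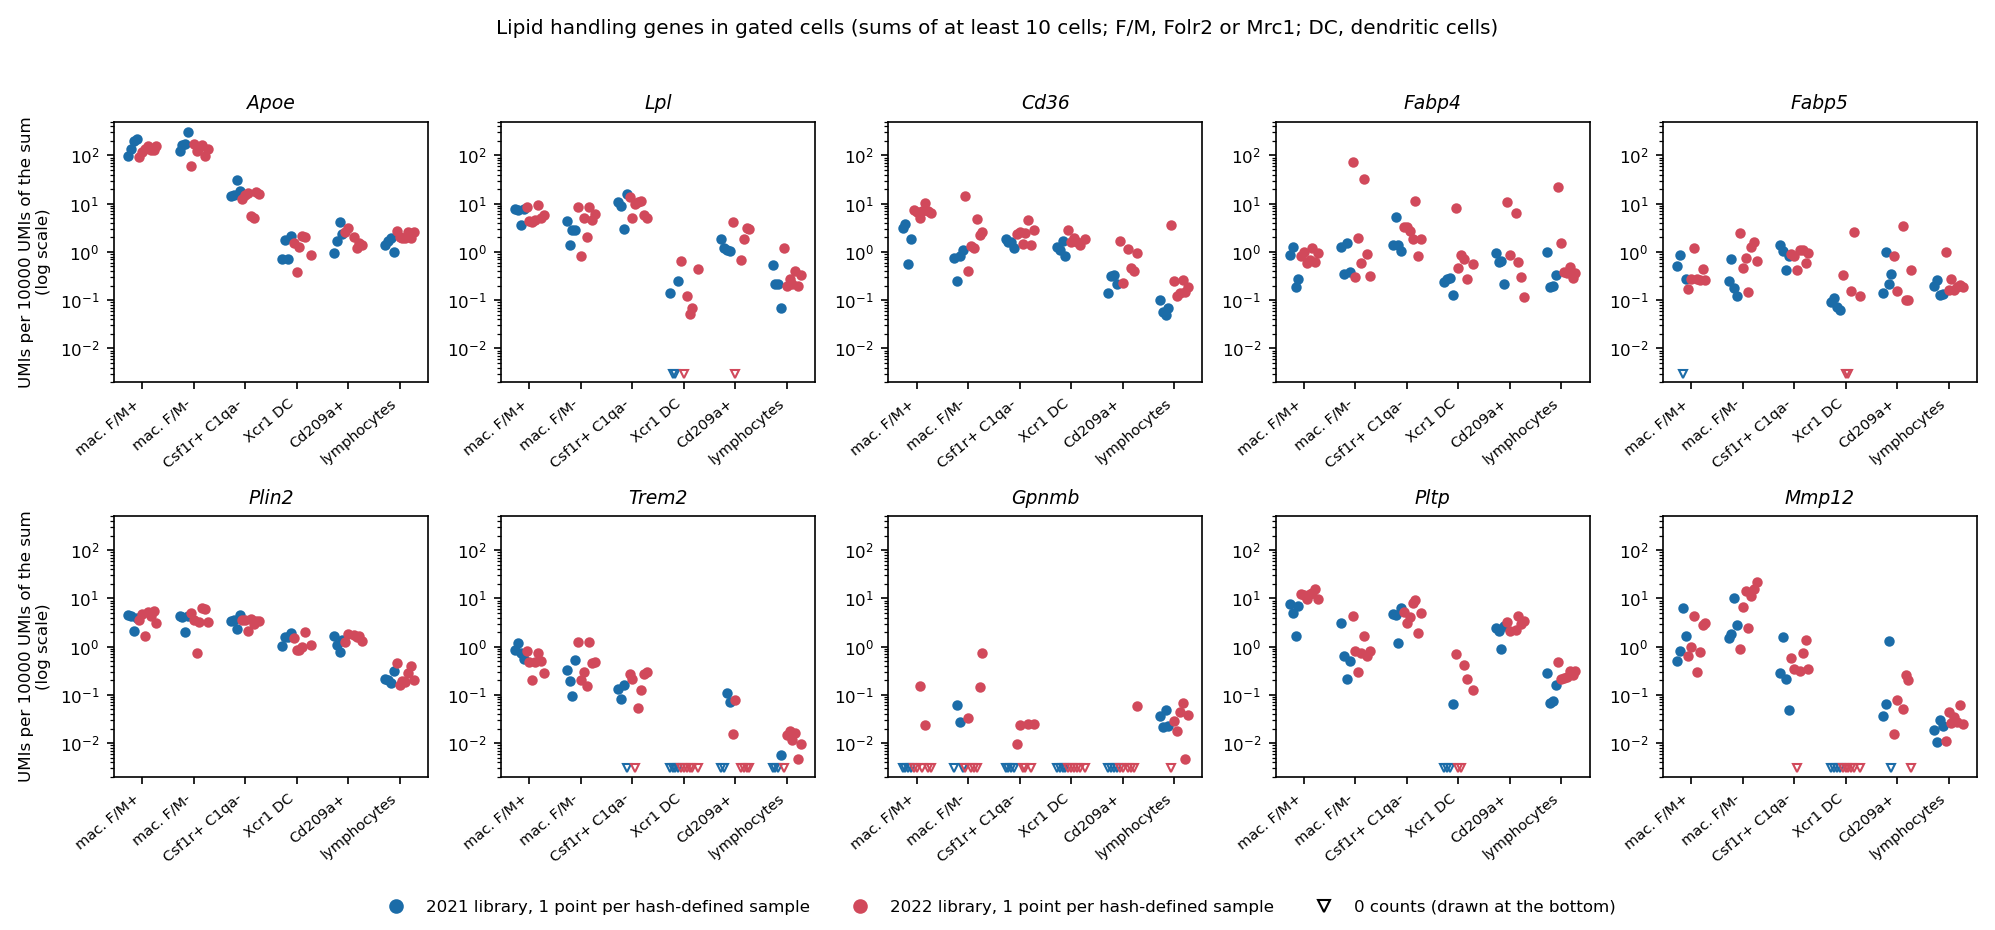
Levels of the 10 genes by gate. The y axis (log scale) gives UMIs of the gene per 10000 UMIs of the summed cells, each point is 1 hash-defined sample (blue MG2021, red MG2022), open triangles mark sums with 0 counts, and F/M stands for Folr2 or Mrc1. Apoe in macrophages lies above all other gates, Pltp is high where Mmp12 is low between the macrophage gates, and Gpnmb has 0 counts in most sums of the myeloid gates.

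Most of the Fabp4 RNA in these libraries lay in endothelial-marker cells, and so did a smaller part of the Fabp5 and Cd36 RNA. These were cells outside the gates with at least 3 UMIs over a list of endothelial genes such as Pecam1. They also had fewer than 3 UMIs of epithelial genes and no more of fibroblast than of endothelial genes. This group was chosen after the levels had been seen. Endothelial-marker cells, 34 in MG2021 and 169 in MG2022, held 65.6% and 67.2% of all Fabp4 UMIs, while the macrophage gates together held 0.940% plus 4.57% in MG2021 and 1.34% plus 2.96% in MG2022. The same endothelial cells held 21.6% and 21.3% of Fabp5 UMIs, and 14.1% and 28.6% of Cd36 UMIs. Fabp4 is the fatty acid carrier of adipocytes, capillary endothelium and some macrophages. In MG2022 its lymphocyte level reached 22.3 per 10000 in Germ-free and had a median of 0.375 over the 7 samples, against a median of 0.838 in Folr2/Mrc1+ macrophages. In MG2021 the medians over 4 samples were 0.267 and 0.561. A Fabp4 UMI was found in 10.6% of Folr2/Mrc1+ macrophages and 1.75% of lymphocytes in MG2021, and in 23.7% and 8.10% in MG2022, at median depths of 2493.5 and 4287 UMIs in the macrophages and 1329 and 2548 in lymphocytes. With cells thinned to 1000 UMIs the shares were 3.68% and 1.20% in MG2021, and 7.44% and 3.51% in MG2022. The macrophage share of cells was above the lymphocyte share in each library. The mean Fabp4 level of the thinned cells was 0.474 per 10000 in Folr2/Mrc1+ macrophages and 0.201 in lymphocytes of MG2021. In MG2022 it went the other way, at 0.90 against 1.06. Gpnmb, a transmembrane glycoprotein of lipid-laden macrophages, stood at 0.0231 and 0.0429 per 10000 in macrophages and at 0.0301 and 0.0351 in lymphocytes. A Gpnmb UMI was seen in 0.485% of macrophages in MG2021 and 0.598% in MG2022, against 0.469% and 0.702% of lymphocytes, at median depths of 2113 and 4272 UMIs in Gpnmb-negative macrophages. A single macrophage of MG2022 GF held 14 of the 25 Gpnmb UMIs of the MG2022 macrophages, and without it their level was 0.0189. No lymphocyte of MG2022 held more than 6. With cells thinned to 1000 UMIs the macrophage and lymphocyte shares were 0% and 0.180% in MG2021, and 0.356% and 0.166% in MG2022. Apart from that 1 cell, the macrophage share is read as background, and Gpnmb was too sparse for any test.

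The first comparison asked how the genes differed between Folr2/Mrc1+ and Folr2/Mrc1- macrophages of the same sample. Pltp, Cd36 and Lpl were higher in the Folr2/Mrc1+ cells and Mmp12 was lower. Counts were summed by gate in each of 11 hash-defined samples and fitted in edgeR with the sample as a block. Of 6076 genes tested, 12.4% were called higher and 13% lower at an adjusted p under 0.05. Of the 9 members tested, 3 were called higher and 1 lower, and 4 of 9 had a fold change above 0. The members' median log2 fold change was -0.02, as was the median over all genes.

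Pltp had the lowest level of 1.69 per 10000, a median of 9.91 and a highest level of 15.5 in Folr2/Mrc1+ macrophages. In Folr2/Mrc1- macrophages the same 3 values were 0.218, 0.746 and 4.34. The ranges overlapped only through the MG2021 Gestation sum, at 1.69 from 9 counts, below 2 of the Folr2/Mrc1- sums, those of the Germ-free samples of MG2021 (3.06) and MG2022 (4.34), and within each sample the Folr2/Mrc1+ cells were higher in 11 of 11. The log2 fold change was 3.14 ± 0.24 (SE; edgeR quasi-likelihood, adjusted p = 9.75e-11). It was 2.61 in the MG2021 library alone and 3.49 in the MG2022 library alone. Pltp was seen in 55.8% of Folr2/Mrc1+ and 7.29% of Folr2/Mrc1- macrophages in MG2021 and in 85.9% and 23.4% in MG2022, against 1.51% and 6.51% of lymphocytes. With each cell thinned to 1000 UMIs these shares were 36.8% and 3.38% in MG2021 and 60.6% and 8.48% in MG2022, against 0.931% and 2.62% of lymphocytes.

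Mmp12 differed the other way. Its lowest, median and highest levels were 0.294, 0.97 and 6.38 in Folr2/Mrc1+ macrophages and 0.891, 6.52 and 21.8 in Folr2/Mrc1- macrophages. The groups overlapped, but within each sample the Folr2/Mrc1+ cells were lower in 11 of 11. The log2 fold change was -2.11 ± 0.23 (SE; edgeR, adjusted p = 5.01e-08), with -0.99 in MG2021 alone and -2.55 in MG2022 alone. The difference between the libraries was -1.49 (interaction, adjusted p = 0.186) and was not called. A Mmp12 UMI was found in 44.7% of Folr2/Mrc1- macrophages in MG2021 and 48.1% in MG2022, and in 16.3% and 7.40% of Folr2/Mrc1+ cells.

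Cd36, the fatty acid and oxidised lipoprotein receptor, ranged from 0.563 over a median of 6.32 to 10.2 in Folr2/Mrc1+ macrophages. The lowest value, of MG2021 Gestation, rested on 3 counts. In Folr2/Mrc1- macrophages it ranged from 0.255 over 1.19 to 14.6. The highest Folr2/Mrc1- value came from MG2022 Germ-free, where a single cell held 74.0% of the Cd36 UMIs. Cd36 was higher in the Folr2/Mrc1+ cells of 9 of 11 samples, all but MG2021 Gestation and MG2022 Germ-free, and the difference was 1.51 ± 0.30 on the log2 scale (SE; edgeR, adjusted p = 0.000398). Without the replicate block the value was 1.18 (adjusted p = 0.0509), short of the threshold.

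Lpl, the lipase that frees fatty acids from lipoproteins, ranged from 3.57 over 5.72 to 9.34 in Folr2/Mrc1+ macrophages and from 0.806 over 4.38 to 8.69 in Folr2/Mrc1- macrophages. The groups overlapped over most of their range, and 8 of 11 samples were higher in the Folr2/Mrc1+ cells. The exceptions were MG2022 Germ-free (8.64 against 8.69), Lactation (4.2 against 4.93) and GF (5.72 against 5.98). The log2 fold change was 0.71 ± 0.19 (SE; edgeR, adjusted p = 0.00649). It was 1.27 in MG2021 alone (adjusted p = 9.01e-05) and 0.44 in MG2022 alone (adjusted p = 0.157), and without the replicate block it was 0.61 (adjusted p = 0.0944), so the call did not hold in the MG2022 library alone or without the block.

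The other members tested did not pass. Apoe, the apolipoprotein of cholesterol export, had medians of 133 and 142 per 10000 and a log2 fold change of -0.08 (edgeR, adjusted p = 0.617). Its 95% interval ran from -0.27 to 0.11. Plin2 had medians of 4.32 and 4.13 and a log2 fold change of -0.02 (adjusted p = 0.951). Trem2, the lipid-sensing receptor, had medians of 0.546 and 0.331 and a log2 fold change of 0.49 (adjusted p = 0.246). Fabp5, a fatty acid carrier, had medians of 0.277 and 0.635 and a log2 fold change of -0.97 (adjusted p = 0.0524), near the threshold. It was called in 11 of 25 alternative analyses. Fabp4 had a value of -1.51 (adjusted p = 0.0958), and it rested on the Folr2/Mrc1- sums of MG2022 Germ-free (72.1) and Regression (32.3), where a single cell held 96.4% and 96.8% of the Fabp4 UMIs. Without the highest cell of each sum the Fabp4 value was 0.04.

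**Figure D2:**
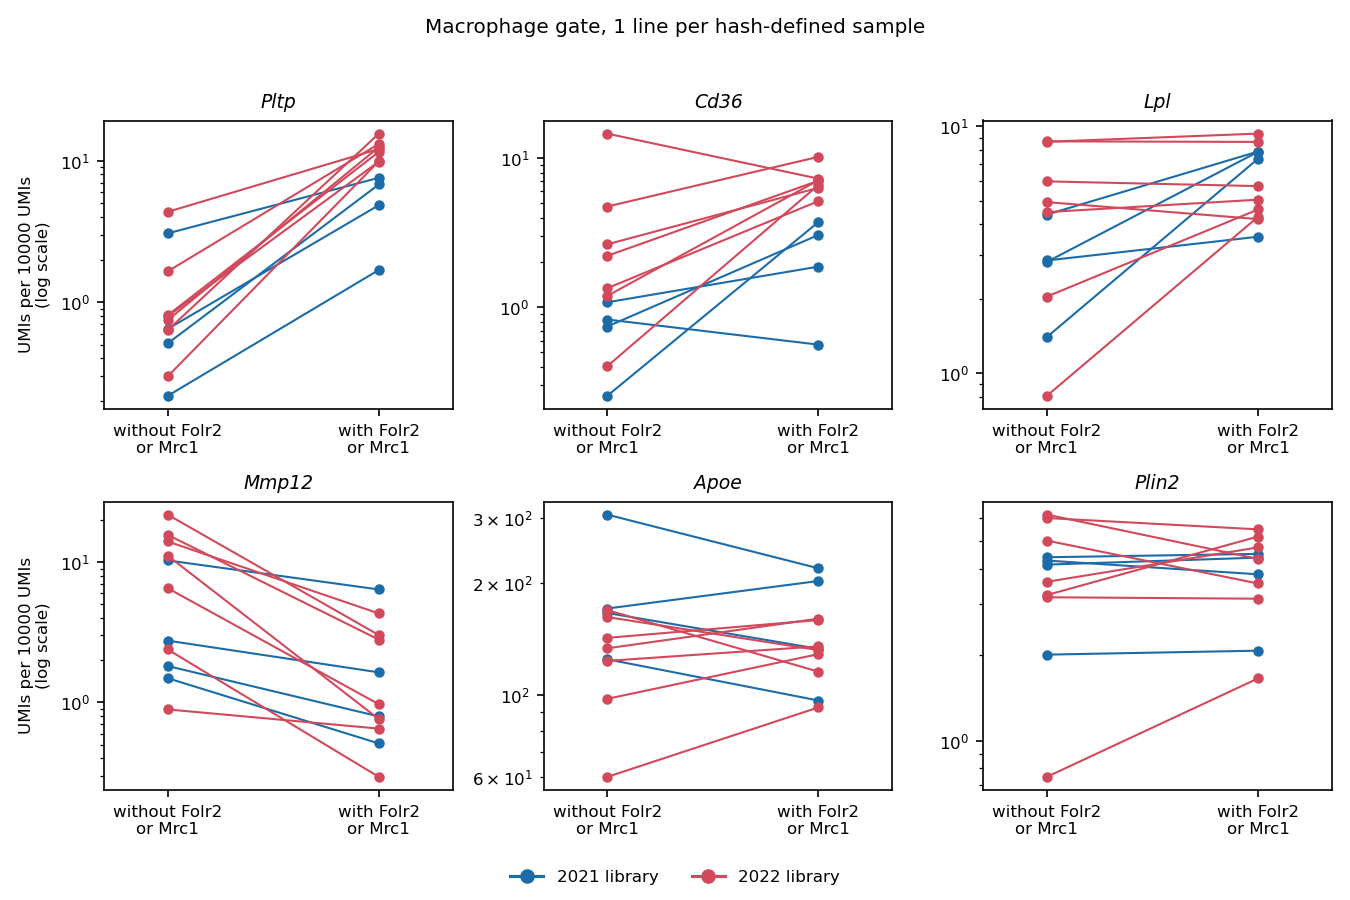
Paired levels of Pltp, Cd36, Lpl, Mmp12, Apoe and Plin2 in macrophages without and with a Folr2 or Mrc1 UMI. The y axis (log scale) gives UMIs per 10000, and each line joins the 2 sums of 1 hash-defined sample (blue MG2021, red MG2022). All 11 Pltp lines rise and all 11 Mmp12 lines fall, while Apoe and Plin2 lines go both ways.

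Other marker lists moved with this split, and their part in the results was not tested. The list of 7 resident macrophage genes such as Lyve1 and Cd163 summed to 28.3 and 67.2 in Folr2/Mrc1+ against 0.895 and 1.46 in Folr2/Mrc1- macrophages. The macrophage list was near one level in MG2021 (79.2 against 76.2) and 77.9 against 62.5 in MG2022. Red cell haemoglobin genes summed to 0.0169 and 0.238 in Folr2/Mrc1+ and to 2.85 and 21 in Folr2/Mrc1- macrophages. The antibody light chain gene Igkc stood at 112 against 284 in MG2021 and at 3.61 against 4.60 in MG2022, while the B cell surface gene Ms4a1 was below 0.1 in both gates. Itgax, the dendritic cell integrin also found on some macrophages, stood at 0.966 and 0.689 in Folr2/Mrc1+ and at 3.27 and 4.24 in Folr2/Mrc1- macrophages. Ccr2, the chemokine receptor of recruited monocytes, went the other way, with 6.58 and 5.49 against 1.76 and 2.84. The endothelial list summed to 0.0847 and 0.249 against 0.278 and 1.18.

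The wider lipid pathways were read from 5 gene lists, some of which hold members. Of 19 genes of lipid uptake and fatty acid handling, 17 were tested, 4 were higher and 3 lower in Folr2/Mrc1+ macrophages, with a median log2 fold change of 0.14 beside -0.02 over all genes. Lrp1, a scavenger receptor for lipoproteins, was higher at 1.3 (edgeR, adjusted p = 4.96e-06) beside Cd36. Gpihbp1, which anchors lipoprotein lipase on capillary endothelium, was lower at -4.49 (adjusted p = 0.00252). Of 12 tested genes of cholesterol efflux and LXR targets, 1 was higher and 5 were lower, with a median of -0.44. The higher gene was Abca1, the cholesterol exporter, at 1.43 (adjusted p = 2.45e-07). Nceh1, a cholesteryl ester hydrolase, was lower at -1.09 and Mylip, a ubiquitin ligase, at -1.17.

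Of the lipid synthesis and droplet genes 3 were called, all lower, beside 13% called lower over all genes. Of 7 tested lipid droplet genes 1 was lower, the triglyceride synthase Dgat2 at -2.55. Of 8 tested sterol and fatty acid synthesis genes 2 were lower, among them the sterol synthesis enzyme Hmgcs1 at -1.12, and the median was -0.82. The list of genes linked to lipid-associated macrophages and lysosomes had 18 tested, 5 higher and 8 lower, with a median of -0.35. Grn (1.66), which encodes a lysosomal growth factor, and Lgals1 (1.37), a galectin, were among the higher ones. Itgax (-2.16) and Ctss (-0.89), a lysosomal protease, were among the lower ones. The Folr2/Mrc1+ gate thus had calls in both directions within the uptake, efflux and lysosome lists.

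The second comparison set all macrophages against Csf1r+ C1qa- cells in the same 11 samples. Apoe, Trem2, Mmp12 and Cd36 were higher in macrophages, and Lpl, Fabp4 and Fabp5 were lower. Of 8656 genes tested, 16.7% were called higher and 15.8% lower, and of 9 members tested 4 were called higher and 3 lower. The members' median log2 fold change was 0.27, beside 0.00 over all genes.

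Apoe ranged from 90.6 over a median of 143 to 274 per 10000 in macrophages and from 4.99 over 15.2 to 30.8 in Csf1r+ C1qa- cells. The groups did not overlap. The log2 fold change was 3.43 ± 0.19 (SE; edgeR, adjusted p = 2.21e-11). Mmp12 ranged from 0.605 over 2.34 to 11.3 against 0 over 0.337 to 1.57, was higher in 11 of 11 samples, and differed by 2.47 ± 0.45 on the log2 scale (SE; adjusted p = 0.000231). Trem2 ranged from 0.139 over 0.428 to 0.847 against 0 over 0.131 to 0.299, was higher in 10 of 11, at 1.62 on the log2 scale (adjusted p = 9.03e-05).

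Lpl was lower in macrophages in 10 of 11 samples. It ranged from 2.35 over 4.67 to 9.30 in macrophages and from 2.93 over 10.0 to 16.2 in Csf1r+ C1qa- cells, and the log2 difference was -0.79 ± 0.16 (SE; edgeR, adjusted p = 0.000768). The exception was MG2022 GF, at 5.80 against 5.11. Fabp4 had medians of 0.798 and 1.82 and a log2 fold change of -1.19 (adjusted p = 0.00227), and Fabp5 had medians of 0.375 and 0.922 and a log2 fold change of -1.01 (adjusted p = 0.00543). Each of these carriers was lower in 9 of 11 samples. The Fabp4 call was lost in cells of at least 2000 UMIs (adjusted p = 0.0514) and in MG2021 alone (adjusted p = 0.0701), and the Fabp5 call without the HT2 samples (-0.80, adjusted p = 0.0514) and with all gates in 1 fit (adjusted p = 0.0783). Plin2 did not pass (0.23, adjusted p = 0.0985).

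Cd36 and Pltp differed between the libraries in this comparison. Cd36 was higher in macrophages in 9 of 11 samples, at 0.76 (log2, edgeR, adjusted p = 0.00604), but the MG2021 library alone gave -0.29 (adjusted p = 0.452) and the MG2022 library 1.23 (adjusted p = 3.24e-06). Pltp had 0.27 (adjusted p = 0.436) over both libraries, with -0.94 (adjusted p = 0.0285) in MG2021 and 0.86 (adjusted p = 0.000175) in MG2022. The interaction with library, MG2022 minus MG2021, was 1.78 ± 0.32 (SE; adjusted p = 0.0170) for Pltp and 1.51 ± 0.27 (SE; adjusted p = 0.0170) for Cd36. Both were among 16 genes of 8656 with an interaction called. The share of macrophages that were Folr2/Mrc1+ ran from 5.07% to 48.5% over the MG2021 samples and from 31.7% to 93.8% over the MG2022 samples, and its part in the interaction was not tested.

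Among the pathway lists, cholesterol efflux and LXR targets had 6 of 12 tested genes higher in macrophages and 0 lower, among them Abca1 (3.56) and Nceh1 (1.61). Lipid uptake had 8 of 18 higher and 4 lower. Lipid droplet genes had 0 of 9 higher and 2 lower, with G0s2, an inhibitor of the triglyceride lipase, at -2.07. Sterol and fatty acid synthesis had 0 of 11 higher and 1 lower. The lipid-associated and lysosome list had 9 of 18 higher, among them Cd63 (4.01) and Ctsl (2.43), and 2 lower, Lgals3 (-0.72) and Cd9 (-0.71). Macrophage markers were not absent from the other side of the comparison, where the macrophage list summed to 8.07 and 7.15 per 10000, and the neutrophil list there was uneven between samples, as given above. The part of either in these results was not tested.

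Against Xcr1 dendritic cells and Cd209a+ cells the members were higher in macrophages or not called. In 10 samples with enough Xcr1 dendritic cells, 5545 genes were tested, of which 28.4% were higher in macrophages and 20.9% lower. Of 9 members tested 7 were called higher and 0 lower. The 7 include Trem2 and Mmp12, which had no counts in the Xcr1 cells and could only come out higher. The count of 7 is therefore not read against the share over all genes. Apoe had a median of 147 against 1.40 and a log2 fold change of 6.79, Pltp of 5.11, Lpl of 4.70 ± 0.27 (SE), Plin2 of 1.43 and Cd36 of 1.07 (edgeR, adjusted p = 0.00105). Cd36 was higher in 8 of 10 samples, and in the MG2021 library alone it was 0.03 and not called. Trem2 and Mmp12 had 0 counts in all Xcr1 sums, against 402 and 2373 in the macrophage sums. With a floor of 3 counts over the group, Trem2 was at least 31.0-fold higher and Mmp12 at least 183-fold higher in macrophages. Fabp4 (0.65, adjusted p = 0.0990) and Fabp5 (0.31, adjusted p = 0.647) were not called.

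The Cd209a+ cells held more Lpl and Pltp than the Xcr1 cells in each library, as given above, a difference not tested. Of 7971 genes tested in 10 samples, 16.3% were higher in macrophages and 13.5% lower, and of 9 members tested 7 were called higher and 0 lower. In these 10 samples Plin2 did not overlap, with 2.00 to 5.83 in macrophages and 0.763 to 1.84 in Cd209a+ cells. MG2022 Lactation, with 9 Cd209a+ cells, was not among them. Its macrophages held Plin2 at 1.42, below the highest Cd209a+ value. Plin2 had a log2 fold change of 1.57 ± 0.11 (SE). Lpl had 1.66 ± 0.22 (SE) and Cd36 2.80 ± 0.21 (SE). Pltp was higher in 8 of 10 samples at 1.11 ± 0.22 (SE; edgeR, adjusted p = 0.000389), with 0.22 (adjusted p = 0.671) in MG2021 alone. Apoe (6.25) and Mmp12 (4.71) were higher, and Trem2 (4.91) was set against 4 counts. Fabp4 (-0.12, adjusted p = 0.878) and Fabp5 (-0.58, adjusted p = 0.420) were not called.

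**Figure D3:**
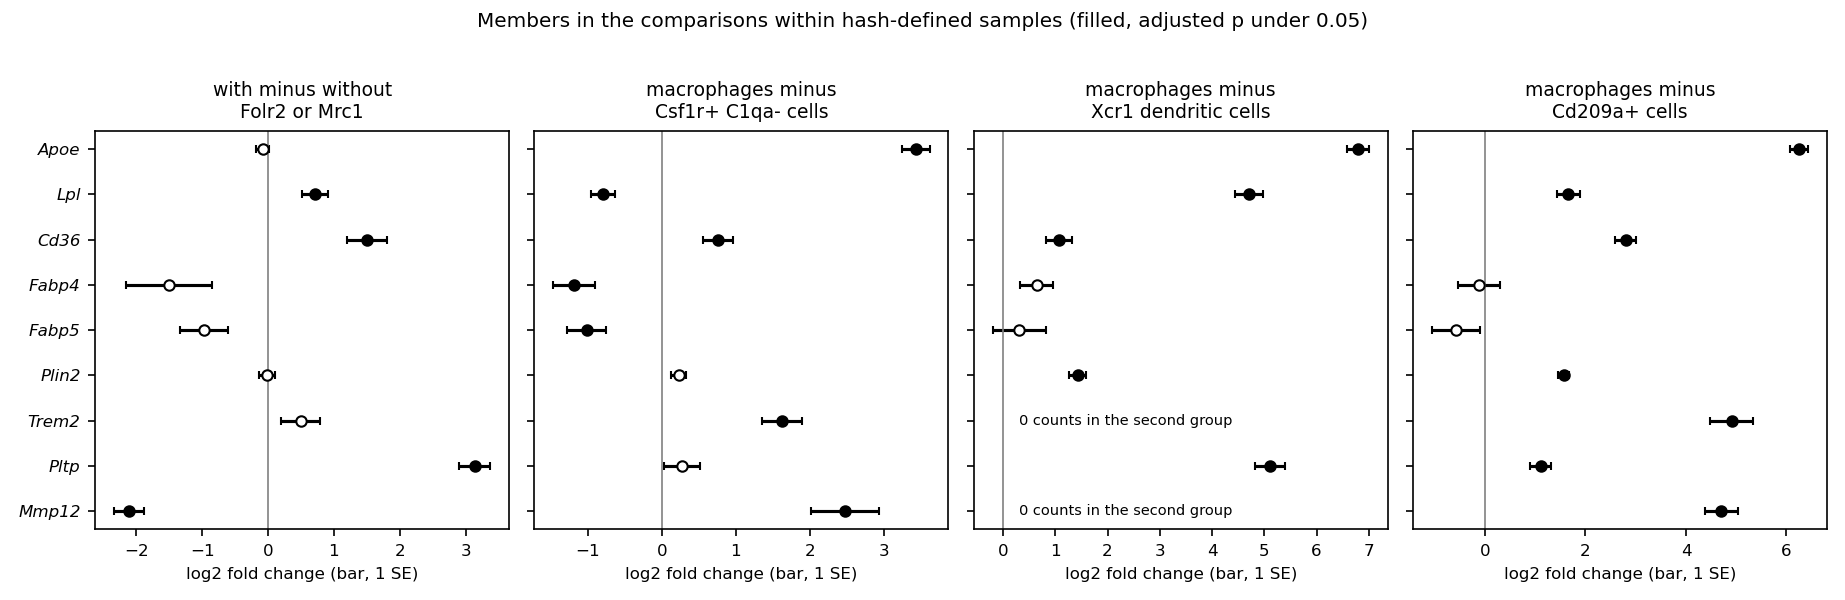
Log2 fold changes of the members in the 4 comparisons within samples, Folr2/Mrc1+ minus Folr2/Mrc1- macrophages, and macrophages minus Csf1r+ C1qa- cells, Xcr1 dendritic cells and Cd209a+ cells. Points are edgeR estimates, bars are 1 SE, and filled points have an adjusted p under 0.05. Pltp has the highest value in the first panel (3.14) and Lpl lies below 0 in the second (-0.79) and above 0 in the third and the fourth.

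The Krt8 gate held too few cells for a test, 3 in MG2021, all of Gestation, and 14 in MG2022. Milk genes summed to 4313 and 2760 per 10000 in these cells. Plin2, which also coats milk fat droplets, stood at 3.56 in MG2021, where all 13 UMIs lay in 1 cell, and at 8.09 in MG2022 (95% Poisson interval 7.31 to 8.94). The MG2022 Balb/c sum was the highest of the Plin2 values at 28.7. Lpl stood at 6.57 and 5.97, Cd36 at 1.64 and 4.76, Fabp4 at 0 and 8.65, Fabp5 at 0.821 and 1.93, Apoe at 7.67 and 2.93 and Pltp at 0.548 and 0.208. Trem2, Gpnmb and Mmp12 had 0 counts, which allows up to 0.821 per 10000 in MG2021 and 0.0624 in MG2022. These are sums over a few cells and describe those cells only.

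Over the hash tag names, the make-up of the macrophages varied along with Pltp and Mmp12. In MG2021 the Folr2/Mrc1+ share was 48.5% in Germ-free (95% exact binomial interval 38.4 to 58.7), 19.4% in Nulliparous, 5.07% in Gestation (3.17 to 7.65) and 34.7% in Lactation. In MG2022 it was 93.8% in Germ-free, 61.8% in Gestation, 76.0% in Lactation (61.8 to 86.9), 85.7% in Involution and 92.9% in Regression, with 66.4% in GF and 31.7% in Balb/c. Gestation was below Lactation in both libraries, and in MG2022 the interval of Gestation (51.6 to 71.2) overlapped that of Lactation. Lymphocytes gave 0.661% in MG2021 and 6.72% in MG2022. With cells thinned to 1000 UMIs the shares were 38.3%, 14.3%, 2.72% and 22.2% for the MG2021 names in the same order, and 79.5%, 50.5%, 54.0%, 72.2%, 80.7%, 48.8% and 24.7% for those of MG2022.

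Pltp in all macrophages stood at 5.28 in Germ-free, 1.31 in Nulliparous, 0.317 in Gestation and 2.86 in Lactation of MG2021. In MG2022 it stood at 11.6 in Germ-free, 6.09 in Gestation, 7.49 in Lactation and 10.7 in Involution, with 12.5 in Regression, 7.01 in GF and 5.68 in Balb/c. Mmp12 stood at 1.01, 1.65, 10.0 and 2.34 for the MG2021 names in the same order. In MG2022 it stood at 0.664 in Germ-free, 3.79 in Gestation, 6.74 in Lactation and 0.605 in Involution, with 1.32 in Regression, 8.90 in GF and 11.3 in Balb/c. In MG2021 Gestation, and in MG2022 Balb/c, the macrophages had the highest Mmp12 and the lowest Pltp of their library. With 1 sample per name and library these values carry no test.

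Within the Folr2/Mrc1- gate alone, Mmp12 still ranged from 1.49 in Germ-free over 1.82 in Nulliparous and 2.76 in Lactation to 10.3 in Gestation of MG2021. In MG2022 it ranged from 0.891 in Germ-free over 2.39 in Involution, 6.52 in Gestation, 11.1 in Regression, 14 in Lactation and 15.6 in Balb/c to 21.8 in GF. A single cell held 83.3% of the Mmp12 UMIs of the 14 Regression cells and 42.6% of those of the 12 Lactation cells, and without it the values were 2.13 and 9.46. Without the highest cell of their sums, Balb/c stood at 14.4, GF at 16.1, Gestation at 5.05 and Involution at 1.57, and MG2021 Gestation at 10.1. In the Folr2/Mrc1+ gate the highest Mmp12 values were 6.38 in MG2021 Gestation and 4.30 in MG2022 Lactation, where a single cell held 55.9% and 41.9% of the Mmp12 UMIs. Without that cell they were 3.0 and 2.76. With 1 sum per name and library, these differences carry no test.

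Cd36 in all macrophages was between 0.808 and 1.89 in the MG2021 samples and between 3.46 and 9.91 in the MG2022 samples, so the libraries did not overlap. Within MG2022 it was highest in Regression (9.91) and Germ-free (7.70) and lowest in Gestation (3.46). In MG2022 lymphocytes Cd36 had a median of 0.184 over the samples and a highest value of 3.65, in Germ-free. The part of free RNA in the Germ-free macrophage value was not tested. Lpl was between 2.35 and 6.12 in MG2021 and between 2.52 and 9.30 in MG2022, with Regression (9.30) and the MG2022 Germ-free sample (8.64) highest. Apoe ran from 90.6 in MG2022 Germ-free to 274 in MG2021 Lactation. Plin2 ran from 1.42 in MG2022 Lactation to 5.83 in Balb/c, and Trem2 from 0.139 in MG2021 Gestation to 0.847 in MG2022 Germ-free. Library and year cannot be told apart from any other difference between the mice of the 2 runs.

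**Figure D4:**
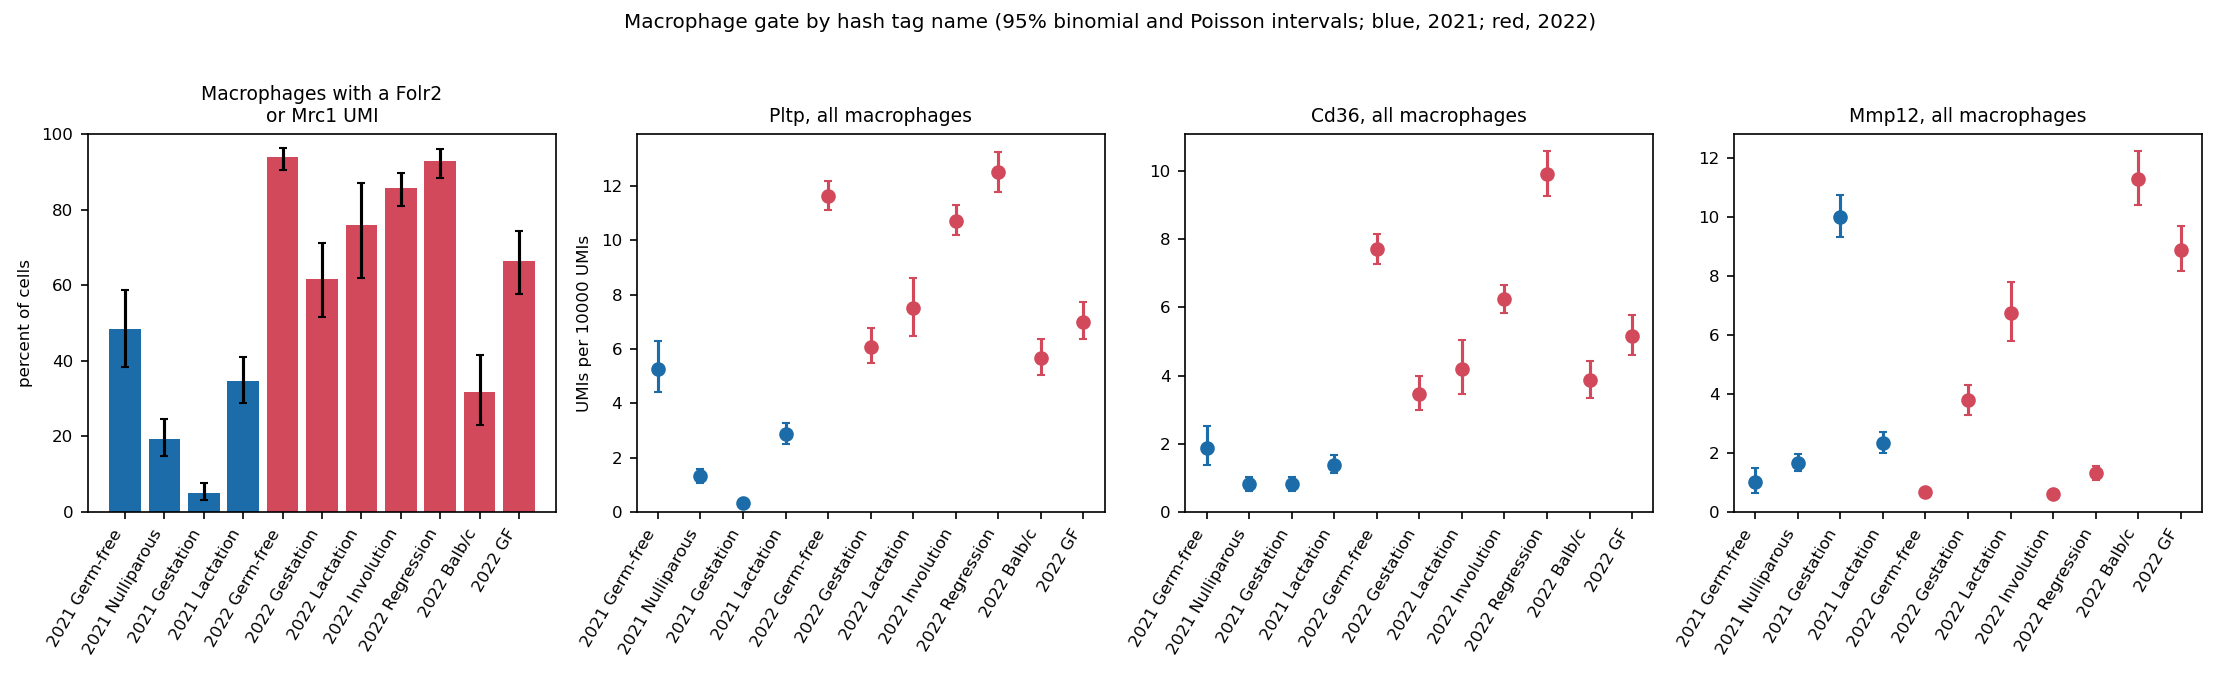
Make-up of the macrophages by tag name in each library. Bars give the percent of macrophages with a Folr2 or Mrc1 UMI (95% exact binomial interval), and points give UMIs per 10000 of Pltp, Cd36 and Mmp12 in all macrophages (95% Poisson interval). The Folr2/Mrc1+ share is lowest in MG2021 Gestation (5.07%) and MG2022 Balb/c (31.7%), where Pltp is lowest and Mmp12 highest in each library.

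Gestation and Lactation were the names present in both libraries with an undisputed tag, and they were compared with the library year as a block, which left 1 residual degree of freedom. In all macrophages 7165 genes were tested and 9 were called, 0.126%, and 0 of the 9 members tested were called. At an unadjusted p under 0.05, 422 genes passed, 3 of them members (Pltp, Lpl and Fabp5), and DESeq2 called 3 genes and no member. Pltp went from 0.317 in Gestation to 2.86 in Lactation in MG2021 and from 6.09 to 7.49 in MG2022, a log2 difference of 1.54 ± 0.51 (SE; edgeR, adjusted p = 0.533). Lpl went from 2.90 to 4.71 and from 2.52 to 4.38, a log2 difference of 0.75 ± 0.28 (SE; adjusted p = 0.648). Mmp12 went from 10.0 to 2.34 in MG2021 and from 3.79 to 6.74 in MG2022, opposite ways, and the log2 difference was -0.65 ± 0.53 (SE; adjusted p = 0.969). The called genes included the neutrophil genes S100a8 (3.74) and S100a9 (3.60), the haemoglobin gene Hbb-bs (7.76) and Retnla (2.55, adjusted p = 0.0235), a secreted protein of alternatively activated macrophages. All 5 lipid lists had 0 genes called in this comparison.

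Neither macrophage gate alone gave a call for a member. In Folr2/Mrc1+ macrophages 0 of 3719 genes were called by edgeR (0%) and 0 of 8 members, with 74 genes at an unadjusted p under 0.05 and 0 called by DESeq2. In Folr2/Mrc1- macrophages 0 of 5062 genes were called by edgeR (0%) and 0 of 9 members, with 81 at an unadjusted p under 0.05, Trem2 the 1 member among them, and 0 called by DESeq2. The cell numbers were small, with 21 and 63 Folr2/Mrc1+ cells in Gestation, 86 and 38 in Lactation, and 12 Folr2/Mrc1- cells in MG2022 Lactation. Pltp in the Folr2/Mrc1+ cells went from 1.69 (9 counts) to 6.79 in MG2021 and from 11.5 to 9.91 in MG2022. In the Folr2/Mrc1- cells it went from 0.218 to 0.510 and from 0.806 to 0.299 (2 counts), so in each gate the libraries went opposite ways.

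In Csf1r+ C1qa- cells 3194 genes were tested between Lactation and Gestation and 94 were called, 2.94%, of which 57 were higher and 37 lower in Lactation. Of 7 members tested, Lpl and Pltp were called higher and 0 lower. Lpl went from 2.93 to 16.2 in MG2021 and from 4.98 to 10.0 in MG2022, a log2 difference of 1.71 ± 0.25 (SE; edgeR, adjusted p = 3.13e-09). A Lpl UMI was found in 13.6% of the cells in Gestation and 42.5% in Lactation of MG2021, and in 14.2% and 26.8% in MG2022. A single cell held 50% of the 56 Lpl UMIs of MG2021 Gestation. Pltp went from 1.20 to 6.34 in MG2021 and from 3.01 to 4.02 in MG2022, a log2 difference of 1.29 ± 0.27 (SE; adjusted p = 0.000191). Cd36 went from 1.57 to 1.23 and from 2.55 to 1.46 and was not called (-0.59, adjusted p = 0.372).

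These calls depended on the fit. The estimated prior degrees of freedom were infinite, and there were 118 and 113 cells in Gestation but 87 and 41 in Lactation. DESeq2 called 1 gene and no member, a fit with no year term called 4 genes and no member, and stricter gates called 0 genes. Fits that left out a Gestation or Lactation sample held all other hash-defined samples, and not only those of these names. Without the MG2021 Gestation sample such a fit gave Lpl at 1.27 and Pltp at 0.65. Without the MG2021 Lactation sample it gave Pltp at 0.62. A change from the main fit thus cannot be assigned to the left-out sample alone. Lpl was 2.51 in the MG2021 library alone and 0.98 in the MG2022 library alone, and Pltp was 2.43 and 0.40.

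Other genes moved with Lpl and Pltp in these cells. Retnla went from 23.6 to 95.2 in MG2021 and from 23.0 to 62.7 in MG2022, with a log2 fold change of 1.74 (edgeR). Lyz1, a lysozyme, went from 0.418 to 10.9 and from 1.49 to 4.69 (2.81), and the complement gene C1qb was higher by 1.45. The cell cycle gene Mki67 was higher by 3.27 (adjusted p = 5.03e-12) and the neutrophil gene S100a9 by 1.22 (adjusted p = 0.00112). Of the monocyte genes, Plac8 (-1.38), Chil3 (-1.53), Treml4 (-1.60) and Ace (-1.13) were lower. Fn1 (0.70, adjusted p = 0.0777), Ccr2 (0.63, adjusted p = 0.177) and Ly6c2 (-0.48, adjusted p = 0.444) of the same list were not called, nor was Ear2 (0.69, adjusted p = 0.126). The whole monocyte list went from 55.2 to 36.2 and from 62.5 to 47.6. The macrophage list went from 9.15 to 10.0 and from 6.40 to 7.80. The neutrophil list went from 2.04 to 17.9 in MG2021 and from 29.2 to 17.7 in MG2022, and milk genes from 11.2 to 6.53 and from 9.21 to 10.4. The part of these in the Lpl and Pltp values was not tested. Of the pathway lists only Lgals1 was called (0.94, adjusted p = 0.0138).

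Over all names, Lpl in Csf1r+ C1qa- cells stood at 10.9 in Germ-free, 9.04 in Nulliparous, 2.93 in Gestation and 16.2 in Lactation of MG2021. In MG2022 it stood at 13.5 in Germ-free, 4.98 in Gestation, 10.0 in Lactation, 11.1 in Involution and 11.2 in Regression, with 5.11 in GF and 5.69 in Balb/c. Gestation was the lowest name in each library. Pltp there was lowest in Gestation of MG2021 (1.20) and in Balb/c of MG2022 (1.88), and highest in Lactation of MG2021 (6.34) and in Regression of MG2022 (9.30). Retnla had its lowest values in MG2021 Gestation (23.6) and MG2022 Gestation (23.0), and its highest in MG2021 Lactation (95.2) and MG2022 Regression (118).

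**Figure D5:**
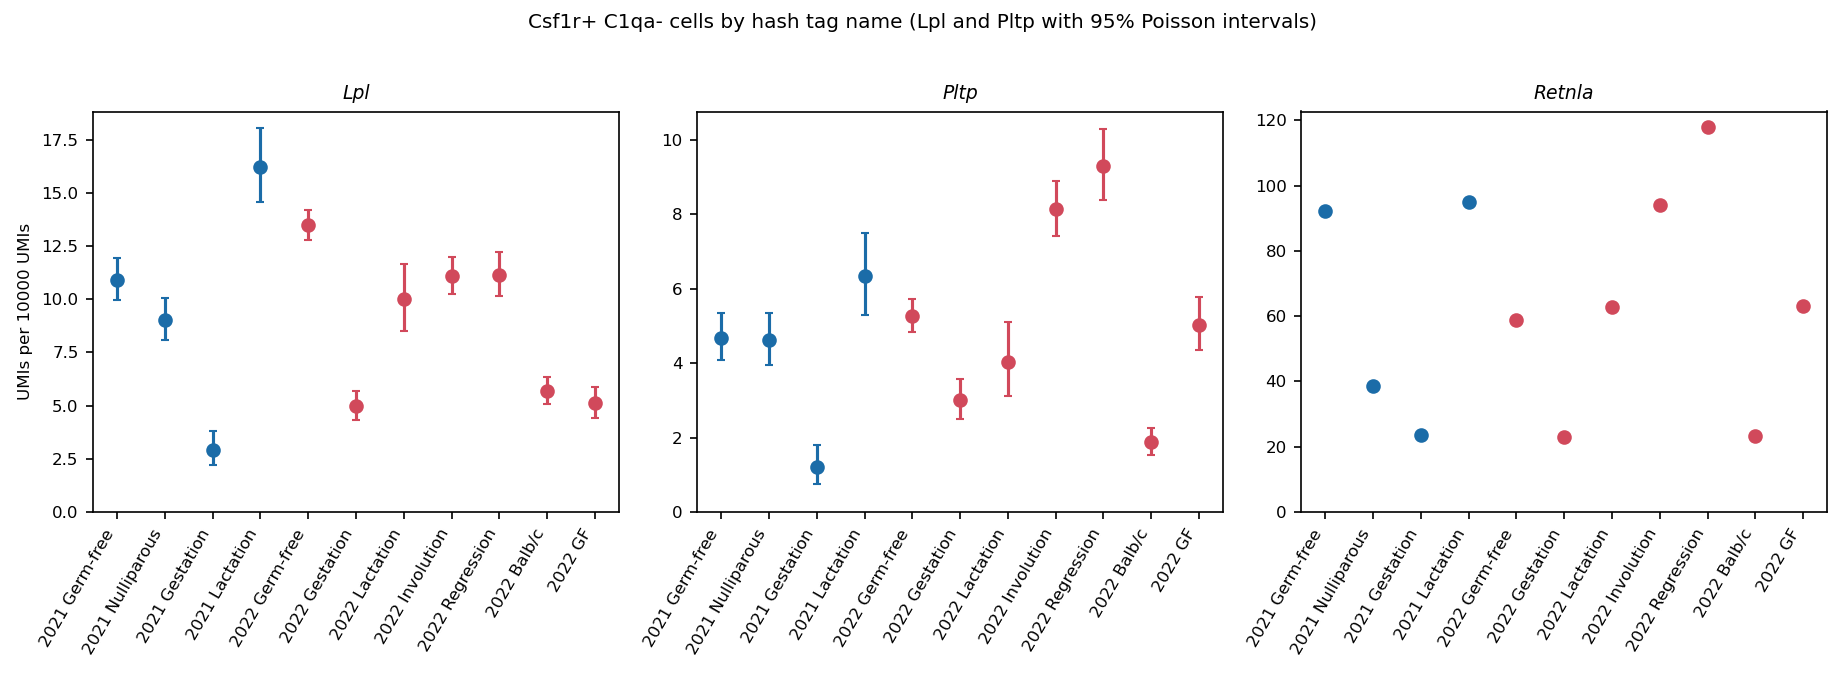
Lpl, Pltp and Retnla in Csf1r+ C1qa- cells by tag name in each library. The y axes give UMIs per 10000 UMIs, and bars on Lpl and Pltp are 95% Poisson intervals, which cover counting error only. Lpl is lowest in Gestation in both libraries (2.93 and 4.98) and highest in MG2021 Lactation (16.2).

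Genes with the pattern most like each member were ranked by Pearson's r of log2 CPM over 53 sums of gate and sample, among 4068 genes. The sums share libraries and gates, so r is a description. Apoe was nearest to the macrophage genes C1qb (0.97), Ms4a7 (0.96) and C3ar1 (0.96), and Trem2 to Lgmn (0.88), Ms4a7 (0.87) and Apoe (0.86). Pltp was nearest to Clec4a1 (0.92), Fcrls (0.92) and Clec4a3 (0.91). Lpl was nearest to Cd300lb (0.88), Daglb (0.88) and Fcgr3 (0.87). Mmp12 was nearest to Lhfpl2 (0.89), Nceh1 (0.87) and Itgb5 (0.85), and Plin2 to Ftl1 (0.80), Msr1 (0.77) and Blvrb (0.76). Cd36 (Arap1, 0.72), Fabp5 (Cdkn1a, 0.61) and Fabp4 (Csnk1a1, 0.57) had no gene above 0.8. Gpnmb had counts in 12 sums and was not ranked.

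The few macrophages with a Gpnmb UMI, 5 in MG2021 and 7 in MG2022, were too few for a test and had a median of 6040 and 8172 UMIs per cell, against 2113 and 4272 in the other macrophages. In MG2022 Mmp12 stood at 27.5 in them and 2.89 in the others, with all 174 of its UMIs in 3 of the 7 cells. Trem2 stood at 2.21 against 0.552, Fabp5 at 7.59 against 0.347, Plin2 at 7.74 against 4.11 and Apoe at 217 against 127. The Trem2 UMIs lay in 3 of these cells and the Fabp5 UMIs in 4. Lower in them were Lpl (4.43 against 6.27), Cd36 (5.53 against 6.51), Fabp4 (0.632 against 2.20) and Pltp (5.06 against 9.85). In MG2021 Mmp12 was 2.83 against 4.35, Apoe 137 against 195, Plin2 2.52 against 3.53 and Trem2 0.315 against 0.366. For these members the libraries thus gave different orders. Lpl was 0.630 against 3.61 and Fabp5, from 3 counts, 0.944 against 0.354. Cd36, Fabp4 and Pltp had no counts in the MG2021 cells with Gpnmb.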

How the data were processed

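Gene and hash tag libraries were made with 10x Genomics 3' chemistry version 3.1, per the labels' protocols. Reads were aligned to mm10 with Cell Ranger 6.1.0, per the submitters' processing notes, while the header of the MG2021 gene matrix names Cell Ranger 4. As deposited, the values are raw UMI counts of genes and raw counts of tags for each barcode, with no normalization. The libraries summed to 56300251 and 90642638 UMIs, and the entry CT010467.1 held 18.4% and 6.01% of them. The matrices list 55487 entries each, 234 of which were left out because they did not match by symbol. Tag names came from the deposited sheets of tag names.

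Barcodes under 500 UMIs, under 300 genes or above 10% mitochondrial UMIs were dropped. Hash tags were assigned with HTODemux (Seurat 5.3.0, quantile 0.99) and singlets kept. Scrublet (scanpy 1.11.5, expected rate 0.08) was run on all barcodes that passed these limits, and called 7.83% and 6.87% of them doublets. Cells so called were removed. The MG2022 Nulliparous tag had 1 count and was not used. Counts were summed by gate and hash-defined sample (at least 10 cells) and tested with edgeR 4.0.16 (quasi-likelihood, TMM, filterByExpr, Benjamini-Hochberg over all genes tested), with the hash-defined sample, or the year, as a block. Log2 fold changes are macrophages or Lactation minus the other group. DESeq2 1.42.0 (R 4.3.3) was an alternative, and the fits were tested on simulated data. Named genes were the members, the 2 genes of lowest adjusted p per direction in each pathway list, and the 3 genes most like each member. Some genes that this rule selects are not reported here. Other genes named were chosen after their values were seen. The members, gates and lists were chosen with earlier results of these data known.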

Additional observations from a re-analysis of the deposited data

Results flagged for a closer look

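Fabp4 in MG2022 Regression stood apart in the comparison of macrophages with Xcr1 dendritic cells. Its log2 ratio was 3.36, while the other 5 samples of MG2022 lay between -0.76 and 0.46. A single macrophage held 152 of the 258 Fabp4 UMIs of that sample's macrophages (58.9%), and its Xcr1 sum held 4. Without that cell, a setting chosen after seeing the data, the ratio was 2.08 and the sample no longer stood apart by this measure, its gap being 0.573 of the range against a limit of 0.625. Of 52 groups examined this way 1 stood out, and chance alone gives about 1 in 20.

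The macrophage minus Csf1r+ C1qa- difference varied between the libraries for 2 of the members, by a test of the interaction itself, among 36 such tests. The MG2022 minus MG2021 difference in log2 fold change was 1.78 for Pltp and 1.51 for Cd36. The libraries also differed in depth and in the share of Folr2/Mrc1+ macrophages, and the part of these in the difference was not tested.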

How the results depend on the processing

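Across 25 alternatives for Folr2/Mrc1+ minus Folr2/Mrc1- macrophages, Pltp (2.61 to 3.63) and Mmp12 (-3.76 to -0.99) were called in all 25, Cd36 in 24 and Lpl in 23. The number of members called higher was 1 without the replicate block, against 3. Members called lower, 1 in the main analysis, numbered 4 with no low-count filter, 3 with all gates in 1 fit, 2 with stricter gates, without CT010467.1, without the replicate block, in MG2022 alone and without the MG2022 Lactation sample, and 1 to 3 when leaving out a sample in turn. Genes called fell from 1545 to 337 in MG2021 alone. Uncalled members changed sign as follows, and the cause was not tested. Apoe was 0.091 in MG2022 alone. Fabp4 was 0.28 with stricter gates and 0.037 without the highest cell. Fabp5 was 0.40 in MG2021 alone. Plin2 was 0.015 with doublet calls kept, 0.15 without the highest cell, 0.033 without HT2, 0.054 in MG2022 alone and -0.12 to 0.035 when leaving out a sample.

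Without the replicate block and in MG2021 alone, genes called were 1863 and 981 against Csf1r+ C1qa- cells (2814 in the main analysis), 1627 and 1217 against Xcr1 dendritic cells (2737), and 1498 and 875 against Cd209a+ cells (2373). In MG2021 alone Cd36 was -0.29 and Pltp -0.94 against Csf1r+ C1qa- cells. Against Xcr1 cells Fabp4 was -0.026 with doublet calls kept and -0.020 without the block, and Fabp5 -0.37 with stricter gates, -0.16 with doublet calls kept and -0.31 in MG2022 alone. Against Cd209a cells Fabp4 was 0.37 with DESeq2, 0.14 without HT2 and 0.49 in MG2021 alone, and Fabp5 0.066 with DESeq2 and 0.25 without the highest cell.

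Lactation minus Gestation moved most. Here the fits that left out a sample held all other hash-defined samples, HT2 included. They differ from the main fit in that as well. In all macrophages (9 genes, 0 members) the genes called were 3 with DESeq2, 0 with no filter or no year term (no replicate block), 2 with stricter gates, 33 in cells of at least 2000 UMIs, 54 with doublet calls kept and 14 with all hash-defined samples. There 1 member was higher with doublet calls kept and 1 lower at 2000 UMIs. Leaving out a sample gave 5 to 63 genes, 0 to 1 members higher, 0 to 2 lower, and Mmp12 from -1.92 to 0.62. In Folr2/Mrc1+ macrophages (0 genes) the counts were 3 with DESeq2 size factors, 7 with no filter, 2 at 2000 UMIs, 1 with doublet calls kept, 12 with all samples and 2 to 18 leaving out a sample. In Folr2/Mrc1- macrophages (0 genes) they were 2, 18, 4, 2 and 9 in the same order, 1 with stricter gates, 1 without CT010467.1 and 4 to 17 leaving out a sample, with 0 to 3 members higher and 0 to 1 lower. In Csf1r+ C1qa- cells (94 genes, 2 members) the genes called were 1 with DESeq2, 0 with stricter gates, 4 with no year term, 43 with all samples and 3 to 182 leaving out a sample. Members higher were 0, 0, 0, 1 and 0 to 2 in that order. Folr2/Mrc1+ macrophages could not be compared between stages under stricter gates, with under 10 cells in a sum, and no fit was made for Gpnmb or the Krt8 gate. Of the members' fold changes over all alternatives, 613 kept their direction and side of the threshold, 25 reversed, 28 passed it only in the alternative, 19 no longer passed it and 9, which had no test, moved. Low counts limit Trem2, Fabp5 and Gpnmb most.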
